A study of Mus musculus with 8 samples.

Results

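The genes described here are Keap1, Cul3, Nfe2l2, Nqo1, Gclc, Gclm and Hmox1, 7 of the 25689 genes named on a mouse copy number array. They were chosen by name as the core of the Keap1 and Nrf2 oxidative stress pathway. Together they carry 31 of the 232626 probes, and 757 probes lie within 0.5 Mb of them. Genomic DNA was set against reference DNA on 2-colour Agilent arrays, so that each value is a log2 ratio of test over reference DNA, centred on the autosomal median of its array. The tumours were 6 hepatocellular carcinomas of FEAT transgenic mice of 16, 21, 20, 18.5, 22 and 12 months (tumours 1 to 6), with lung metastasis recorded for tumour 4. The other samples were the normal liver of a FEAT transgenic mouse of 13 months and the normal liver of a wild-type mouse of 6 months, 1 sample each. FEAT is another name for the methyltransferase gene Mettl13, and the labels do not name the promoter of the transgene. All mice were male C57BL/6, and the reference on every array was liver DNA of a wild-type C57BL/6 male of 6 months. The ages of tumours 1 to 5 exceed those of the non-tumour livers, and for these samples an effect of age cannot be told apart from that of the tumour. The labels do not give the share of tumour cells in a sample.

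Keap1 is a sensor of oxidants and electrophiles. As the substrate adaptor of a ubiquitin ligase built on the scaffold Cul3, it marks the transcription factor Nrf2, encoded by Nfe2l2, for degradation. When Keap1 is modified or missing, Nrf2 accumulates and drives genes with antioxidant response elements, among them Nqo1, Gclc, Gclm and Hmox1. The pathway protects hepatocytes from toxic injury, and its constant activity is known in a subset of human liver cancers. The arrays measured DNA copy number and not expression or protein.

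Keap1, the brake of the pathway, lay in called losses of tumours 4 and 5, and Cul3, its ligase partner, lay in a called gain of tumour 5. Gclc, on the same chromosome as Keap1, lay in the loss of tumour 5. The loss in tumour 4 was no longer called after correction for GC content. No gene of the set was called in tumours 1, 2, 3 and 6, in the non-tumour FEAT liver or in wild-type liver. Between the 6 tumours and the 2 non-tumour livers as groups, no difference at the 7 genes passed limma's test after Benjamini-Hochberg adjustment.

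The values below rest on oligonucleotide probes of 49 to 60 bases, of which 8 are shown because the readings of single genes turn on them. The 3 probes that carry the name Keap1 lie on chromosome 9. The Gclc probe, the first Gclm probe and the outer Keap1 probes gave bright spots on the wild-type array and low ratios in the FEAT samples. The Nfe2l2 probe and the second Gclm probe gave faint spots on the wild-type array, though not flagged as dim, and high ratios in tumour 4. The Nqo1 probe was low on all 8 arrays. Spot signal was available for the wild-type array only. The positions are those of the array file. Its build is not stated in what was used here, and whether a probe is exonic or intronic was not analysed here. Sequences run 5′ to 3′ as the array file gives them.
Keap1 probe at chr9:21107719-21107778: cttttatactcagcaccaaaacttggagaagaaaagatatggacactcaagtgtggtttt
Keap1 probe at chr9:21111387-21111446: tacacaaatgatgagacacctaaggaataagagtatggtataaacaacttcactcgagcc
Keap1 probe at chr9:21114507-21114565: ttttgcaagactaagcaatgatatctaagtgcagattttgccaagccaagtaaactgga
Gclc probe at chr9:77805854-77805913: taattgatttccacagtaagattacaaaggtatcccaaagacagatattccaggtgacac
Nfe2l2 probe at chr2:75546190-75546249: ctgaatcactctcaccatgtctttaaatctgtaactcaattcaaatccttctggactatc
Gclm probe at chr3:122020220-122020279: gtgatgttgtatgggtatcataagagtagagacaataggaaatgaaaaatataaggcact
Gclm probe at chr3:122027460-122027516: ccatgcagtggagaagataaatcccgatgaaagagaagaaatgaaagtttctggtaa
Nqo1 probe at chr8:106002049-106002108: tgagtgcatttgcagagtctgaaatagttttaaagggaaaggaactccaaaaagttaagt

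Around Keap1, 181 probes within 0.5 Mb averaged -0.05, -0.03, 0.02, -0.28, -0.34 and -0.07 in tumours 1 to 6, against -0.08 in the non-tumour FEAT liver and -0.06 in wild-type liver. Tumours 4 and 5 stood below both non-tumour livers, tumours 1, 2 and 3 lay above both, and tumour 6 lay between them. The standard error from probe noise was 0.04 in tumour 4 and 0.02 in tumour 5. These errors cover probe noise only, since each tumour was hybridised to 1 array. If every cell of a sample had lost 1 of 2 copies, the log2 ratio would be -1, and neither tumour came near that value.

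Each array was also divided into segments of equal level, and a gene was called lost or gained where its segment was at or beyond 0.2 in size. In tumour 5 the segment over Keap1 spanned 103.9 Mb with a mean of -0.29, and the whole of chromosome 9 averaged -0.29. In tumour 4 the segment ran from 20514235 to 21991345 on chromosome 9, a length of 1.477 Mb with 259 measured probes, and its mean was -0.28, while chromosome 9 as a whole averaged -0.09. The same 265 probe positions averaged -0.06 in the non-tumour FEAT liver and -0.05 in wild-type liver. Of all genes, 0.868% lay in lost segments of tumour 4 and 13.4% in those of tumour 5.

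**Figure D1:**
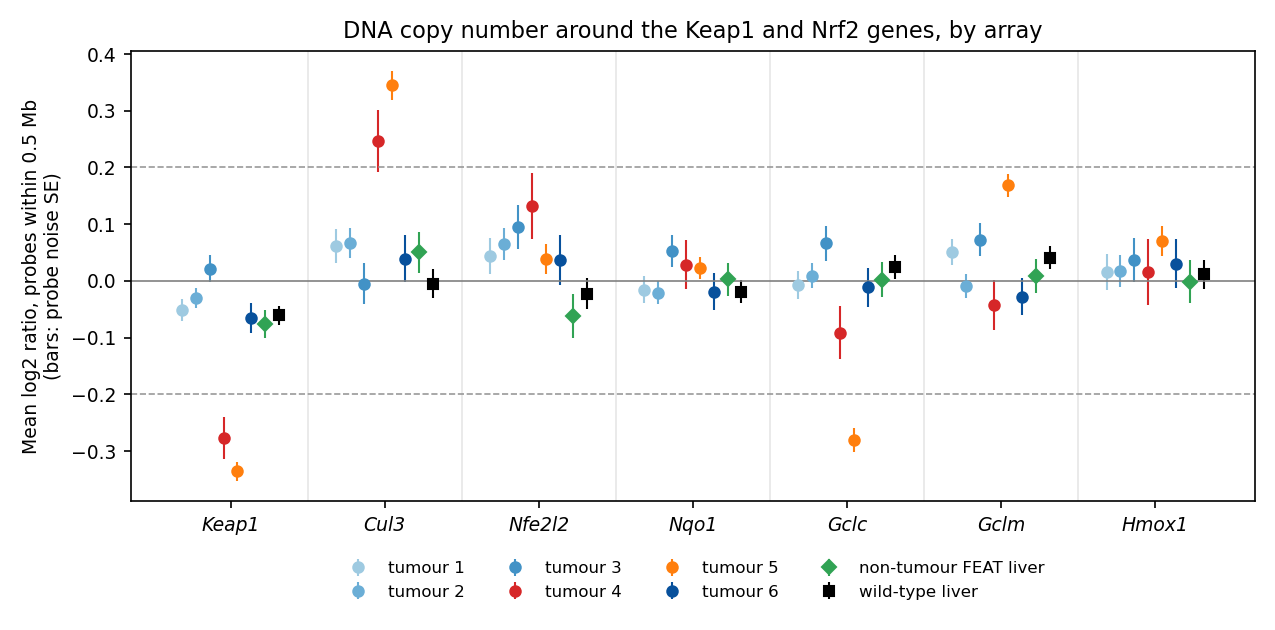
Mean log2 ratio (vertical axis) of the probes within 0.5 Mb of each of the 7 genes (horizontal axis), for tumours 1 to 6, non-tumour FEAT liver and wild-type liver, with bars for the standard error from probe noise and dashed lines at -0.2 and 0.2. Keap1 is at -0.28 in tumour 4 and -0.34 in tumour 5, Cul3 at 0.25 and 0.34 in the same tumours, and Gclc at -0.28 in tumour 5.

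As centred, the region of Keap1 read somewhat low on every array, the non-tumour ones included. Its mean was below that of the flanks from 0.5 to 5 Mb on all 8 arrays, by -0.06 to -0.12 except in tumour 4, where the difference was -0.28. After a correction for GC content, tumour 4 was at -0.16 and the other 7 arrays were between -0.08 and -0.02. After a correction for spot brightness, which was added after the data had been seen, tumour 4 was at -0.17, tumour 6 at -0.0085 and tumour 3 at 0.00069, so that tumour 3 no longer lay below its flanks. As centred, only 0.0428% of all genes had a lower neighbourhood mean in tumour 4 and 0.518% in tumour 5, but in wild-type liver, too, only 0.417% did. In the other samples this share was between 3.79% in the non-tumour FEAT liver and 23.5% in tumour 3. After GC correction the share was 0.312% in tumour 4 and 2.25% in tumour 5, against 3.23% in wild-type liver. After brightness correction it was 0.117% in tumour 4 and 1.72% in tumour 5, against 0.954% in wild-type liver, and it was 68.1% in tumour 3 and 39.9% in tumour 6. The probes of the Keap1 neighbourhood averaged 37.6% GC, against 36.5% over all probes, and their mean log2 spot signal on the wild-type array was 10.1, against 9.8.

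After a correction for GC content the neighbourhood of Keap1 averaged -0.02, 0.01, 0.02, -0.19, -0.30 and -0.04 in tumours 1 to 6, against -0.05 in the non-tumour FEAT liver and -0.03 in wild-type liver. Tumour 5 kept its value and its call. In tumour 4 the corrected probes of the segment averaged -0.21, but the division of the array no longer separated them from chromosome 9, which formed a single segment at -0.09, and Keap1 was not called. With that correction 0.0389% of all genes were lost in tumour 4, while 13.5% were lost and 13.6% gained in tumour 5. The call in tumour 4 was also absent with a larger penalty (-0.09) and with centring on the mode (-0.19), and present after a correction for spot brightness (-0.23). With a smaller penalty, a segment over Keap1 was called in wild-type liver as well (-0.21).

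Along chromosome 9 in bins of 2 Mb, the bin at Keap1 in tumour 4 was -0.22, the second lowest of 61. The lowest, also -0.22, lay 22 Mb away, and the bins ranged up to 0.10. In tumour 5 the bin at Keap1 was -0.32 in a range from -0.33 to -0.19, so that it was part of a level shared by the chromosome. In the non-tumour FEAT liver the bin was at -0.04, the 4th lowest, and in wild-type liver at -0.04, the lowest of the chromosome. After GC correction the bin of tumour 4 was at -0.17, again the second lowest.

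**Figure D2:**
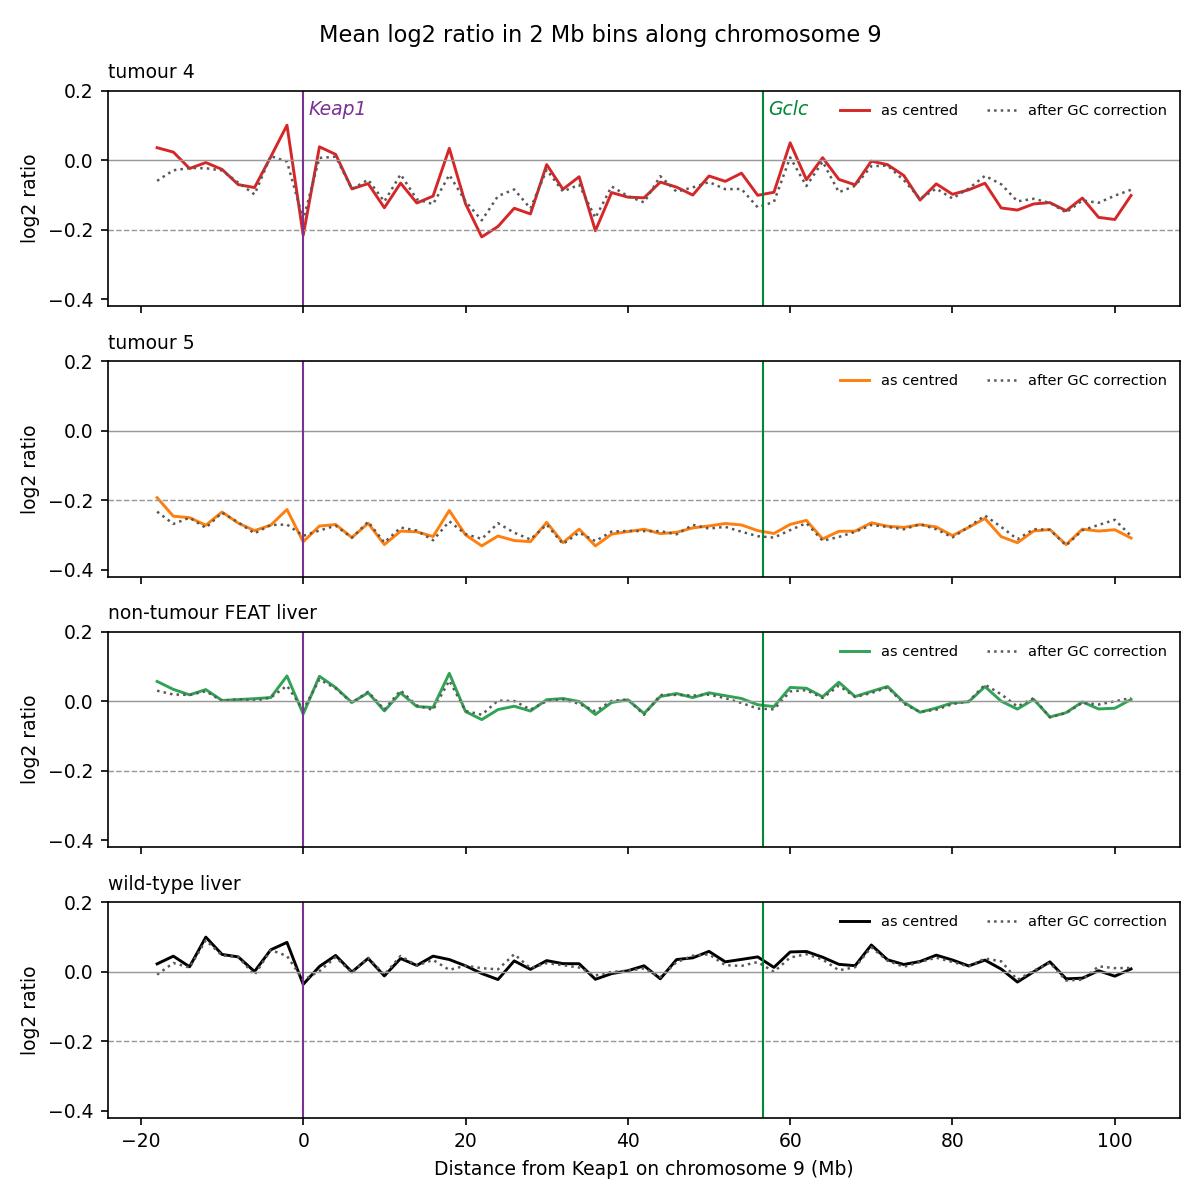
Mean log2 ratio (vertical axis) in 2 Mb bins by distance from Keap1 in Mb (horizontal axis) in tumour 4, tumour 5, non-tumour FEAT liver and wild-type liver, as centred (solid) and after GC correction (dotted), with vertical lines at Keap1 and Gclc and a dashed line at -0.2. Tumour 5 is low along the whole chromosome, between -0.33 and -0.19, while tumour 4 has its bin at Keap1 at -0.22 between neighbours near or above 0.

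The genes that share the neighbourhood with Keap1 showed how wide the shift was. Of 34 genes analysed within 0.5 Mb, Keap1 included, 21 had at least 3 probes. In tumour 4, 15 of these 21 were at or below -0.2, against 16.8% of all genes with at least 3 probes. In tumour 5 it was 20 of 21, against 15.8% of all genes. In tumours 1, 2, 3 and 6 the counts were 3, 0, 3 and 3, with 12.3%, 4.92%, 4.84% and 10.7% of all genes. In the non-tumour FEAT liver 4 of 21 were that low and in wild-type liver 3 of 21, against 9.33% and 4.06% of all genes.

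The median of the 21 genes was -0.34 in tumour 4 and -0.40 in tumour 5, against -0.07 in the non-tumour FEAT liver and -0.03 in wild-type liver. The neighbours named below were picked after their values were seen. Among these neighbours Col5a3, which encodes a collagen chain, was at -0.60 in tumour 4 and -0.39 in tumour 5, against -0.20 in the non-tumour FEAT liver and 0.02 in wild-type liver. Prmt4, a name of the arginine methyltransferase gene Carm1, was at -0.57 and -0.49 in tumours 4 and 5, against -0.20 in the non-tumour FEAT liver and -0.02 in wild-type liver. Of the 21 genes, these were the lowest in tumour 4 after Keap1. Both genes were lower in both tumours than in both non-tumour livers. Not every neighbour did so. Raver1, which encodes an RNA-binding protein, was at 0.29 in tumour 4 and -0.54 in tumour 5, against 0.18 in the non-tumour FEAT liver and -0.02 in wild-type liver. Cdc37, a cochaperone gene of Hsp90, was at -0.51 and -0.43 in tumours 4 and 5, but it was at -0.56 in the non-tumour FEAT liver, against 0.02 in wild-type liver. The maintenance DNA methyltransferase gene Dnmt1, in contrast, was again lower in both tumours than in both non-tumour livers. It was at -0.23 in tumour 4 and -0.46 in tumour 5, against 0.13 in non-tumour FEAT liver and -0.00 in wild-type liver.

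Several of these values moved after brightness correction. Raver1 in tumour 4 turned to -0.10. Col5a3 was then at -0.29 in tumour 4, against 0.0087 in the non-tumour FEAT liver, and Prmt4 was at -0.18 in tumour 4, against -0.11 in the non-tumour FEAT liver. Of the 21 genes, 13 in tumour 4 and 19 in tumour 5 were then at or below -0.2, against 2 in the non-tumour FEAT liver and 2 in wild-type liver. The share of all genes that low after this correction is not given here, and the shares above are as centred.

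**Figure D3:**
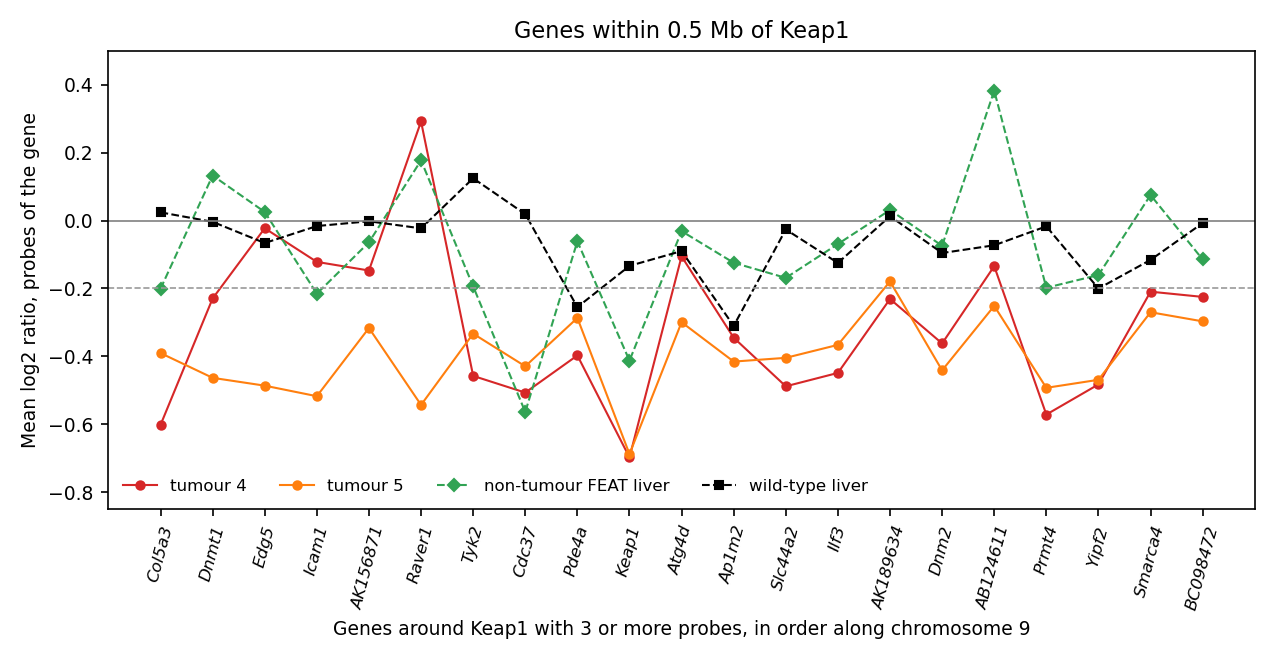
Mean log2 ratio of the probes of each gene (vertical axis) for the 21 genes analysed with at least 3 probes within 0.5 Mb of Keap1, in order along the chromosome (horizontal axis), in tumour 4, tumour 5, non-tumour FEAT liver and wild-type liver, with a dashed line at -0.2. Of the 21 genes, 15 are at or below -0.2 in tumour 4 and 20 in tumour 5, against 4 in the non-tumour FEAT liver and 3 in wild-type liver.

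The 3 probes of Keap1 itself averaged -0.29, -0.20, -0.30, -0.70, -0.69 and -0.51 in tumours 1 to 6, against -0.41 in the non-tumour FEAT liver and -0.13 in wild-type liver. This mean was below that of the neighbourhood on every array. The probe at 21107719 read -0.41, -0.29, -0.22, -0.81, -0.85 and -0.78 in tumours 1 to 6, against -0.77 in the non-tumour FEAT liver and 0.11 in wild-type liver. The probe at 21114507 read -0.46, -0.45, -0.60, -1.18, -0.82 and -0.73 in tumours 1 to 6, against -0.72 in the non-tumour FEAT liver and -0.22 in wild-type liver. Both were low in all 7 FEAT samples, the non-tumour one included, and the non-tumour FEAT liver lay within the range of the tumours. The probe between them, at 21111387, read 0.00, 0.16, -0.07, -0.10, -0.40 and -0.01 in tumours 1 to 6, against 0.25 in the non-tumour FEAT liver and -0.29 in wild-type liver.

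Spot brightness moved with these readings. The outer probes of Keap1 were brighter on the wild-type array than 94.4% and 97.3% of all probes, and the middle probe was brighter than 51.9%. Over the members' probes with a value, 30 or 31 an array, the ratio and the log2 signal on the wild-type array correlated with Pearson's r between -0.85 and -0.44 in the 7 FEAT samples and at -0.11 in wild-type liver. These points share an array and, within a gene, a locus, and in wild-type liver ratio and signal come from the same spots, so that the correlation is only a description. Over all probes of an array, r was between -0.78 in tumour 4 and -0.37 in tumour 5 among the 7 FEAT samples, and -0.26 in wild-type liver. A quadratic fit on brightness over all probes took up 7.49% of the variance of the ratios in wild-type liver and 62.2% in tumour 4. The part of brightness in the low readings of the Keap1 probes was not tested. After the correction for brightness the 3 probes of Keap1 averaged -0.16, -0.09, -0.11, -0.30, -0.58 and -0.21 in tumours 1 to 6, against -0.16 in the non-tumour FEAT liver and -0.09 in wild-type liver. All 8 means were closer to 0 than before it, and tumour 5 moved least in proportion. The Keap1 probes then differed between tumours and non-tumour livers by -0.12, with a 95% confidence interval from limma of -0.40 to 0.17. Before the correction the difference was -0.17 (interval from -0.52 to 0.17), and both intervals include 0. As centred, it was -0.03 without the wild-type liver and -0.31 without the non-tumour FEAT liver. The difference thus rested largely on the wild-type array.

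**Figure D4:**
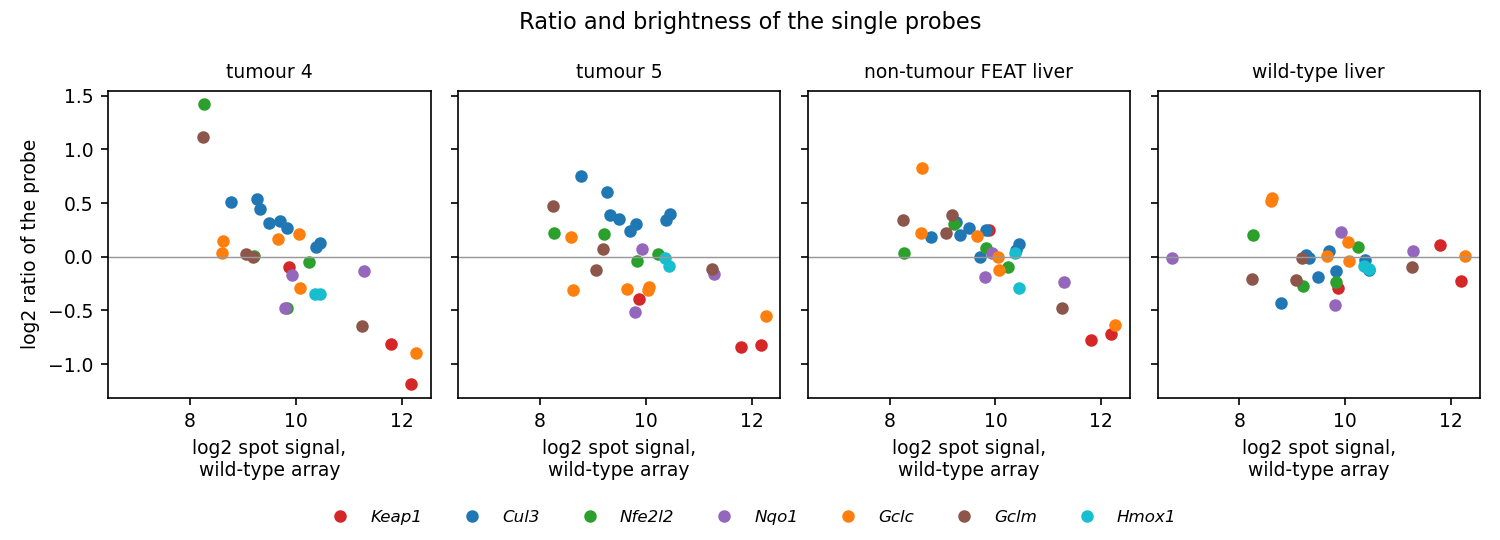
Log2 ratio of each probe of the 7 genes (vertical axis) against its log2 spot signal on the wild-type array (horizontal axis), in tumour 4, tumour 5, non-tumour FEAT liver and wild-type liver, with colours for genes. Bright probes are low in tumours 4 and 5 and in the non-tumour FEAT liver, with r between -0.85 and -0.62, while the wild-type liver has r = -0.11. Over all probes of the array, r was -0.26 in wild-type liver and -0.37 in tumour 5.

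Cul3, on chromosome 1, encodes the scaffold that joins Keap1 to the ubiquitin-conjugating machinery. Its 78 neighbourhood probes averaged 0.06, 0.07, -0.00, 0.25, 0.34 and 0.04 in tumours 1 to 6, against 0.05 in the non-tumour FEAT liver and -0.00 in wild-type liver. Tumours 4 and 5 were the highest, and tumour 3 was level with the wild-type liver. In tumour 5 Cul3 lay in a gained segment of 126.4 Mb with a mean of 0.33, where 14.4% of all genes were gained. Chromosome 1 as a whole averaged 0.32 in tumour 5, where it formed a single segment after GC correction, and 0.18 in tumour 4. The gain in tumour 5 was thus at the level of the chromosome. In tumour 4 its segment of 21.3 Mb was at 0.12 and was not called, against 3.33% of all genes gained. With mode centring that segment reached 0.21 and was called.

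The 8 probes of Cul3 itself ranged from 0.24 to 0.76 in tumour 5, so that all were above 0. In tumour 4 they ranged from 0.09 to 0.53, also all above 0. In the non-tumour FEAT liver they ranged from 0.00 to 0.32, and in wild-type liver from -0.43 to 0.06.

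Nfe2l2, on chromosome 2, encodes Nrf2, and its neighbourhood differed in the same direction in all tumours without reaching a call. Its 69 neighbourhood probes averaged 0.04, 0.07, 0.10, 0.13, 0.04 and 0.04 in tumours 1 to 6, against -0.06 in the non-tumour FEAT liver and -0.02 in wild-type liver. All 6 tumours were above both non-tumour livers, but the share of all genes that separate in this way is not given here. Of all genes tested, 96.6% had a lower difference in means than Nfe2l2. The difference in means was 0.11 with a standard error of 0.04 and an unadjusted p of 0.0209 in limma's test, but the p-value adjusted over all genes was 0.998. After GC correction the difference was 0.11 and after brightness correction 0.09, with 6 of 6 tumours above both livers each time. Segments over Nfe2l2 were between 0.03 and 0.10 in the tumours, at 0.01 in the non-tumour FEAT liver and at 0.04 in wild-type liver, and none was called.

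The 4 probes of Nfe2l2 itself did not move together. The probe at 75546190, dimmer on the wild-type array than most and brighter than only 11.4% of all probes, read 0.78, -0.06, 0.67, 1.42, 0.22 and 0.20 in tumours 1 to 6, against 0.03 in the non-tumour FEAT liver and 0.20 in wild-type liver. The probe at 75534716 read -0.17, 0.16, -0.23, -0.47, -0.04 and 0.01 in tumours 1 to 6, against 0.08 in the non-tumour FEAT liver and -0.23 in wild-type liver. In tumour 4 these probes lay on opposite sides of 0, and no copy number of the gene itself can be read from them.

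Gclc, the catalytic subunit of glutamate-cysteine ligase, which makes the precursor of glutathione, lies 56.7 Mb from Keap1 on chromosome 9. Its 111 neighbourhood probes averaged -0.01, 0.01, 0.07, -0.09, -0.28 and -0.01 in tumours 1 to 6, against 0.00 in the non-tumour FEAT liver and 0.02 in wild-type liver. Tumour 5 stood alone below -0.2. There Gclc and Keap1 shared a segment, so that their calls are not independent. In tumour 4 Gclc was at the level of its chromosome (-0.09), while Keap1 lay below that level (difference of -0.19). The Gclc probe at 77805854, brighter than 97.7% of all probes, read -0.24, -0.21, -0.36, -0.90, -0.55 and -0.80 in tumours 1 to 6, against -0.63 in the non-tumour FEAT liver and 0.00 in wild-type liver. As with the outer Keap1 probes, all 7 FEAT samples were below 0, and each was lower than wild-type liver.

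Gclm, the modifier subunit of the same ligase, lies on chromosome 3. Its 121 neighbourhood probes averaged 0.05, -0.01, 0.07, -0.04, 0.17 and -0.03 in tumours 1 to 6, against 0.01 in the non-tumour FEAT liver and 0.04 in wild-type liver. Tumour 5 was the highest, and the other tumours lay around the non-tumour livers. Its segment in tumour 5 was at 0.19, just under the threshold of 0.2, and at 0.21 with mode centring. Chromosome 3 as a whole averaged 0.195 in tumour 5. The probe at 122020220, brighter than 87.2% of all probes, was below 0 in all 8 arrays, from -0.65 in tumour 4 to -0.11 in tumour 5 among tumours, with -0.48 in the non-tumour FEAT liver and -0.10 in wild-type liver. The probe at 122027460, brighter than 11.1%, read 1.11 in tumour 4, against 0.34 in the non-tumour FEAT liver and -0.21 in wild-type liver.

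Nqo1, a quinone reductase and a standard readout of Nrf2 activity, and Hmox1, which degrades haem, lie on chromosome 8, 32.4 Mb apart. The 126 neighbourhood probes of Nqo1 averaged -0.02, -0.02, 0.05, 0.03, 0.02 and -0.02 in tumours 1 to 6, against 0.00 in the non-tumour FEAT liver and -0.02 in wild-type liver. The 71 neighbourhood probes of Hmox1 averaged 0.02, 0.02, 0.04, 0.02, 0.07 and 0.03 in tumours 1 to 6, against -0.00 in the non-tumour FEAT liver and 0.01 in wild-type liver. All 6 tumours were above both non-tumour livers at Hmox1, but the share of all genes that separate in this way is not given here. The difference in means of 0.03 was smaller than its standard error of 0.04. Of all genes tested, 63.8% had a lower difference. After GC correction 5 of 6 tumours were above both livers at Hmox1, and after brightness correction 4 of 6. Neither gene was called on any array. The Nqo1 probe at 106002049 read -0.60, -0.65, -0.33, -0.48, -0.51 and -0.52 in tumours 1 to 6, against -0.19 in the non-tumour FEAT liver and -0.45 in wild-type liver, so that it was low in wild-type liver too. The Hmox1 probe at 73637034 read -0.27, -0.19, -0.13, -0.35, -0.09 and -0.49 in tumours 1 to 6, against -0.29 in the non-tumour FEAT liver and -0.11 in wild-type liver, and was thus below 0 throughout. The Nqo1 probe at 105992852 had a value on 2 of the 8 arrays.

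The groups were compared by limma over all genes at once, with the 6 tumours against the 2 non-tumour livers. On neighbourhoods, 0% of 25678 genes were called at an adjusted p under 0.05, and 34 had an unadjusted p under 0.05, Nfe2l2 among them. On the probes that carry a gene's name, 0% of 25266 genes were called, and 658 had an unadjusted p under 0.05. No member was called by either measure. The neighbourhood of Keap1 averaged -0.12 ± 0.15 in the tumours (SD, n = 6) and -0.07 in the non-tumour livers, a difference of -0.05 with a 95% confidence interval from -0.25 to 0.14. Cul3 differed by 0.10 (interval from -0.09 to 0.29) and Gclc by -0.07 (interval from -0.24 to 0.11). Nqo1, Gclm and Hmox1 differed by 0.02, 0.01 and 0.03. The intervals of these 6 genes include 0, so that neither a difference nor equal copy number is shown. The median difference of the 7 genes was 0.02, beside 0.01 over all genes tested. The ages differ between all 6 tumours, which marks them as separate mice, while each kind of non-tumour liver is 1 mouse.

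**Figure D5:**
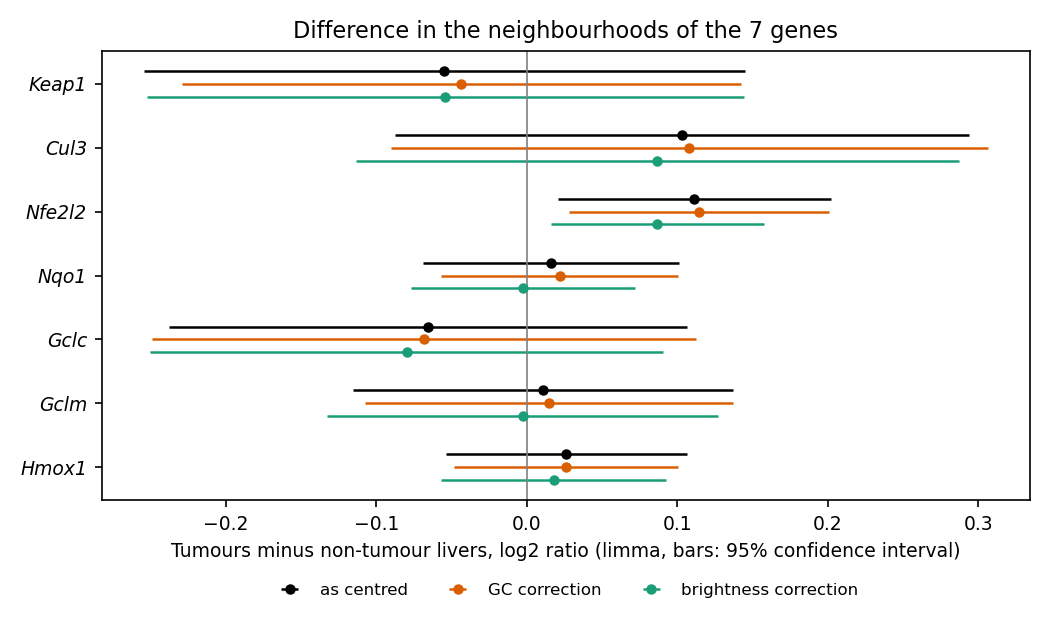
Difference in mean neighbourhood log2 ratio, 6 tumours minus 2 non-tumour livers (horizontal axis), for the 7 genes (vertical axis), with 95% confidence intervals from limma, as centred and after corrections for GC content and for spot brightness. Nfe2l2 is at 0.11 as centred with an interval from 0.02 to 0.20 that is not adjusted for the number of genes, and the intervals of the other 6 genes include 0.

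Over the 42 pairs of a gene and a tumour there were 4 calls, 3 losses and 1 gain, all in tumours 4 and 5. In tumour 1, where 10.3% of all genes were lost and 4% gained, no member was called. In tumours 2, 3 and 6, 0.0428%, 0.0272% and 0.0428% of all genes were called in either direction, and in non-tumour FEAT and wild-type liver 0.0428% and 0.0311%. In tumour 5, 2 of 7 members were lost and 1 of 7 was gained, beside the 13.4% and 14.4% of all genes given above. With mode centring there were 5 calls, 2 losses and 3 gains: the loss of Keap1 in tumour 4 was gone, and gains of Cul3 in tumour 4 and of Gclm in tumour 5 were added. The share of all genes called with mode centring is not given here.

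A wider list of 61 genes of the pathway held 56 that were found on the array, the 7 members included. In limma's test on neighbourhoods 0 of the 56 were called, and Nfe2l2 alone had an unadjusted p under 0.05. Their median difference was 0.02, beside 0.01 over all genes. By segments, 5 of the 56 were lost and 2 gained in tumour 1 (8.93% and 3.57%), beside 10.3% and 4% of all genes. In tumour 4, 1 was lost and 4 were gained (1.79% and 7.14%), beside 0.868% and 3.33% of all genes. In tumour 5, 7 were lost and 9 gained (12.5% and 16.1%), beside 13.4% and 14.4% of all genes. The shares in tumours 1 and 5 were near those of all genes, and those in tumour 4 rest on 5 genes. None was called in tumours 2, 3 and 6 or in either non-tumour liver. With mode centring the split over all tumours was 9 losses and 30 gains, compared with 13 and 15. That centring moves every gene of an array by the same amount, with a mode minus median of -0.087 in tumour 4. The share of all genes called with it is not given here, so nothing about the pathway is read from this split.

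Apart from Keap1, the genes called in 2 tumours were Gsta3, a glutathione transferase, Aox1, an aldehyde oxidase, and Idh1, which supplies cytosolic NADPH. All 3 lie on chromosome 1, as Cul3 does, with segments at 0.21 in tumour 4 and 0.33 in tumour 5. These 3 genes had equal segment values on every array, so that their calls are not independent. After GC correction they, and Keap1, were called in tumour 5 only, and the genes called in 2 tumours were Maff, a small Maf partner of Nrf2, and Rbx1, the RING subunit of the Cul3 ligase. Both lie on chromosome 15 and were gained in tumours 1 and 5 with that correction. Their segments as centred were at 0.26 in tumour 1 and 0.197 in tumour 5, equal for both genes. The share of all genes called in 2 tumours is not given here, so nothing about the pathway is read from these repeats. No listed gene was lost in a tumour and gained in another. By role in tumour 5, where 13.4% of all genes were lost and 14.4% gained, of 9 regulators of Nrf2 found 1 was lost and 2 were gained, of 16 genes of glutathione synthesis and use 3 were lost and 2 gained, and of 5 genes of NADPH supply 2 were lost and 2 gained. Of 9 genes for quinones, haem and iron 1 was lost and 2 were gained, and of 9 for thioredoxin and peroxide 0 were lost and 1 was gained. Of the 8 transcription factors and partners none was called in tumour 5 as centred, and Maff was gained there after GC correction. With so few genes a role, nothing is read from these counts.

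The neighbourhoods off chromosome 9 whose values ran most like that of Keap1 over the 8 arrays were those of C130032F08Rik, Itfg2 and AK052162 on chromosome 6, with Pearson's r of 0.99 each, AK133313 on chromosome 13 and AK154290 on chromosome 10, with r of 0.98 each. All 5 were lowest in tumours 4 and 5, and C130032F08Rik was at -0.10 and -0.12 there, against -0.03 in the non-tumour FEAT liver and -0.00 in wild-type liver. These likenesses rest on 8 arrays, and mainly on tumours 4 and 5, with values shared by array.

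Noise and processing bound what these values can show. The noise of single probes had a standard deviation between 0.22 in tumour 5 and 0.49 in tumour 4, with the wild-type liver at 0.22. All 28 pairs of arrays correlated above 0 over autosomal probes, with r from 0.26 to 0.76.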

How the data were processed

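Per the labels, DNA was labelled by 2 dyes and hybridised to Agilent 244A mouse arrays. The series description names Feature Extraction for reading the scans and CGH analytics 3.4 for analysis. Scanner output was used for the wild-type array alone, where, per the file headers, the version was 9.1.3.1 and the protocol CGH-v4_91. The deposited values of the 8 arrays are log2 ratios. On the wild-type array they were the deposited log10 ratio of the scanner (red over green) with opposite sign and in base 2, plus 0.0014 (r = -1). Higher values there mean more test DNA. For the other arrays the direction comes from the dyes that the labels state. Signal intensity and the dim-spot flags were taken from the deposited scanner file. Genes were named as in the array file, with RefSeq synonyms (GRCm38.p6) for names since changed.

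Spots of a probe were averaged, and the autosomal median of an array was subtracted, with no loess or quantile step. Penalised least squares divided the chromosomes into segments of at least 5 probes, at a penalty of 2 times the noise variance times the log of the number of probes. The number of probes of the whole array was used in it after that of the chromosome had been tried, because it came closer to an earlier analysis of these data. Segments at or beyond 0.2 were called. In simulations of chromosome 9 with the noise of each array, 0 of 160 had a call without a planted change, and a shift of -0.28 over the 265 probe positions around Keap1 was found in 160 of 160. The planted size and span were those of the segment already found in tumour 4. The simulated noise was independent between probes and centred, so this gives no rate of false calls or of recovery for real arrays.

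Groups were compared by limma 3.58.1 in R 4.3.3 on neighbourhood means (0.5 Mb on each side, at least 20 probes) and on means of gene probes, with Benjamini-Hochberg adjustment at 0.05. In simulated neighbourhoods with a spread of 0.05, a shift of 0.3 was recovered in 100% of cases and of 0.1 in 4%. With a spread of 0.12 these shares were 22.5% and 0%. The named genes were the 7 members, list genes that limma called or that lay in called segments of at least 2 tumours or in opposite directions, genes within 0.5 Mb of Keap1, and the 5 genes off chromosome 9 most like it. Neighbours named with values were picked after their values were seen, and 1 neighbour is not reported here. The members and lists were chosen with earlier results of these data known. Of the list, Palb2, Cand1, Gpx4, Ftl1 and Pgd were not matched by name.

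Alternatives changed the centring, the window, the penalty and the threshold, corrected for GC content (probe and 500 kb around it) or brightness, and left out dim probes or single arrays. Tables were made in Python 3.11.15 (pandas 2.3.3, numba 0.67.0, numpy 2.4.6).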

Additional observations from a re-analysis of the deposited data

How the results depend on the processing

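Under the alternatives run, 5 differences between tumours and non-tumour livers reversed, at Nqo1 and Gclm. No member was called by limma under any alternative run. The neighbourhood difference of Nqo1 turned to -0.0025 after brightness correction, which was chosen after seeing the data, as was leaving tumour 4 out of the counts of calls. That of Gclm, 0.01 as reported, turned to -0.0028 after brightness correction, to -0.0056 without the non-tumour FEAT liver and to -0.016 without tumour 5. The difference over the probes of Gclm turned to -0.049 without the wild-type liver. In that setting 13 genes, none of them a member, were called by limma on gene probes, compared with 0 as reported. The cause of these changes was not tested. With each tumour left out in turn, the neighbourhood differences ranged from -0.08 to -0.01 for Keap1, from 0.06 to 0.13 for Cul3, from 0.10 to 0.12 for Nfe2l2, from -0.09 to -0.02 for Gclc, from -0.016 to 0.026 for Gclm, from 0.02 to 0.03 for Hmox1 and from 0.01 to 0.02 for Nqo1. The difference at Nfe2l2 ranged from 0.07 to 0.19 over its 16 alternatives, with adjusted p-values of 0.962 or more. Its unadjusted p in limma's test, 0.0209 as reported, depended on the setting. It was between 0.0089 and 0.036 with each tumour left out in turn, and 0.0075 with a window of 0.25 Mb. However, it was 0.067 with a window of 1 Mb, 0.087 with mode centring and 0.146 with the median of the window. Over the gene's own probes the difference was 0.11, with an unadjusted p of 0.254 in limma's test. The neighbourhood difference at Nfe2l2 was 0.09 without the non-tumour FEAT liver and 0.13 without the wild-type liver. Each of these fits leaves 1 non-tumour liver, so that no p is given for them.

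With a threshold of 0.1 the 7 genes had 7 calls in tumours, with 0.3 they had 1, and without tumour 4 they had 3, compared with 4. They had 5 with mode centring, and 3 with GC correction or the larger penalty, where the call of Keap1 in tumour 4 was absent. The pathway list had 66 calls at 0.1, 6 at 0.3, 39 with mode centring and 23 with GC correction, compared with 28. The shares of all genes called at these other thresholds and with mode centring are not given here. The neighbourhood of Keap1 in tumour 4, -0.19 below chromosome 9 as reported, was at -0.11 after GC correction, at -0.13 with a window of 1 Mb and at -0.11 after brightness correction. No paired analysis was possible because the labels give no replicate numbers shared between groups. The number of arrays limits precision: 2 non-tumour livers, 1 of each kind, stand against 6 tumours, and single-gene values of 2 to 8 probes are open to the readings of single spots.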
